A study of Homo sapiens with 36 samples.

Results

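The comparison described here sets MS78 against TRAP-1-NegB in BxPC-3 cells, an established human pancreatic adenocarcinoma line, after 4 h of treatment at 3 µM. It holds the 3 libraries of each compound at that time, 6 of the 36 libraries of the series, and the 14988 of 29744 genes that passed a filter on low counts. MS78 and TRAP-1-NegB were each added at 3 µM for 4 h, and DMSO, the solvent, was added for the same time in the 3 vehicle libraries used to place both compounds. The labels give the genotype of all cells as WT, which says nothing of genes that are mutant in the line itself. The series lists both compounds among the controls of a further compound, TRAP1, which shares its name with an unrelated gene. The labels do not say what NegB stands for. From published work, MS78 is known as a compound designed to recruit the lysine acetyltransferases p300 and CBP. All libraries came from one line grown in 6-well plates, and nothing states that replicates were separate cultures, so the p-values measure the spread between these libraries, which may be technical.

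The p53 pathway, when active, raises CDKN1A, which encodes the cell-cycle inhibitor p21, along with MDM2 and genes of cell death. Cells hold their sterol level by a second, unrelated route. When sterol in the endoplasmic reticulum is low, the SREBP factors leave it with SCAP, enter the nucleus and raise the enzymes of cholesterol and fatty acid synthesis, while INSIG1 holds SCAP back. The aryl hydrocarbon receptor, on another route, senses many small aromatic molecules and raises CYP1A1 and CYP1B1.

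Totals ran from 19310787 to 19526342 estimated counts in the MS78 libraries and from 19292847 to 24625710 in the TRAP-1-NegB libraries. Of 17 ductal and epithelial markers, 16 reached at least 1 TPM. The summed level of these markers was 17400 to 17700 TPM in MS78 and 18300 to 18600 TPM in TRAP-1-NegB. Of 9 acinar and endocrine markers 7 were at 0 in all 6 libraries. Of 10 haematopoietic and endothelial markers, PTPRC and KDR were at 0, and 3 others reached at least 1 TPM. The sum of these 10 was 27.4 to 29.9 TPM in MS78 and 23.5 to 32.5 TPM in TRAP-1-NegB. Of 12 mesenchymal and fibroblast markers 4 reached at least 1 TPM. Their sum was 23.1 to 28.2 TPM in MS78 and 18.8 to 21.3 TPM in TRAP-1-NegB. None of the 6 libraries stood apart from its group. At 2 h, MS78 replicate 1 did, and the 2 h results below are given with and without it.

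At 4 h, 301 genes were higher and 1037 lower in MS78 than in TRAP-1-NegB (edgeR quasi-likelihood test over all 36 libraries, Benjamini-Hochberg adjusted p under 0.05, two-sided). These are 2.01% and 6.92% of the genes tested, 8.93% together. Leaving out MS78 replicate 1, 2 or 3 gave 190, 276 or 294 higher and 474, 607 or 656 lower, and leaving out TRAP-1-NegB replicate 1, 2 or 3 gave 194, 263 or 141 higher and 780, 590 or 690 lower. Without the 2 libraries of other groups that stood apart (TRAP1 4 h replicate 1 and MS78 2 h replicate 1), neither of which is in the groups compared here, 868 were higher and 1272 lower. Most changes were small: 29 of the higher and 79 of the lower genes moved by at least 1.5-fold. Of the called genes 13 moved by at least 2-fold, and all 13 averaged under 5 CPM (counts scaled to the library's size) over the 6 libraries. The groups did not overlap at 28.3% of the genes tested, whether called or not. CPM is a share of each library, so fewer cells that hold a transcript and less of it per cell cannot be told apart.

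**Figure D1:**
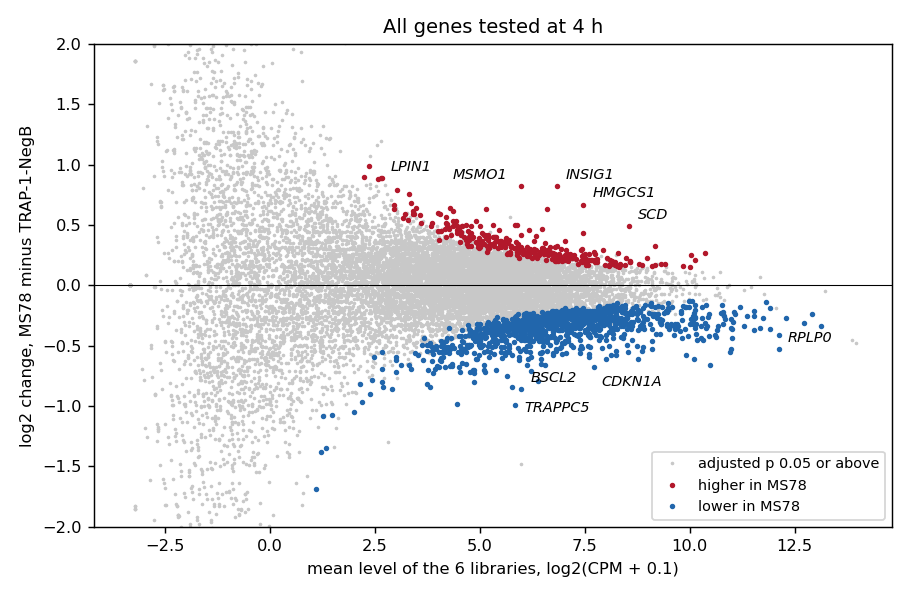
Each point is a gene tested at 4 h: the x axis gives its mean level over the 6 libraries as log2(CPM + 0.1), the y axis its log2 change, MS78 minus TRAP-1-NegB, with the 301 genes called higher in red and the 1037 called lower in blue. The axis stops at -2 and 2, which leaves out 404 genes, 7 of them called; the sterol genes INSIG1, MSMO1 and HMGCS1 lie above other genes of like level, and CDKN1A lies below.

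CDKN1A (chromosome 6, 36676460 to 36687339, plus strand, GRCh38) was lower in MS78. It had 156, 162 and 169 CPM in the MS78 libraries and 267, 258 and 256 CPM in the TRAP-1-NegB libraries. The groups did not overlap, and the MS78 libraries lay at the level of DMSO, where it had 161, 156 and 166 CPM. The log2 change was -0.68 ± 0.049 (SE; 1.61-fold lower, edgeR adjusted p = 3.5e-15), and it was kept under all 16 alternatives tried. TRAP-1-NegB was above DMSO by a log2 change of 0.69 (edgeR adjusted p = 2.9e-16), whereas MS78 differed from DMSO by 0.01 (edgeR adjusted p = 0.93). These 3 comparisons share libraries, so their values are set side by side only. Under TRAP1 the same gene averaged 7760 ± 228 CPM (SD, n = 3).

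Over 4 lists of p53 pathway targets, 0 of 82 genes tested were higher and 6 lower, 7.32%, near the 8.93% of all genes called. Of 15 targets that act in cell-cycle arrest, 0 were called higher and 3 lower, with a median log2 change of 0.00, against 0.0118 over all genes. Besides CDKN1A these were PLK3, a stress-activated kinase (-0.43), and SFN, which encodes 14-3-3 sigma (-0.34). With a correction for GC content and transcript length PLK3 had -0.22 (edgeR adjusted p = 0.07) and SFN -0.03, and neither was called. By edgeR, 0 of 18 targets of cell death and death receptors and 0 of 12 in DNA repair and metabolism were called, with 1 and 5 genes at an unadjusted p under 0.05, and DESeq2 called 0 and 1. Of all 14988 genes, 3180 had an unadjusted p under 0.05 by edgeR, and DESeq2 called 1741. Of 39 other targets 0 were higher and 4 lower, PLK3 being in both lists. Among the 4, PGF, a growth factor of the VEGF family, had 24.4, 18.8 and 22.3 CPM in MS78 and 36.4, 34.5 and 35.9 CPM in TRAP-1-NegB. The groups did not overlap, with a log2 change of -0.70 ± 0.11 (edgeR adjusted p = 4e-06). SERTAD1, a cell-cycle regulator, was also lower (-0.60).

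MDM2, a ubiquitin ligase that restrains this pathway, averaged 49.1 ± 6.14 CPM in MS78 and 42.6 ± 2.38 CPM in TRAP-1-NegB (SD, n = 3 each). Its log2 change was 0.21, with a 95% interval from -0.03 to 0.44 (edgeR adjusted p = 0.31). BTG2, an antiproliferative gene, changed by 0.03 (-0.18 to 0.24), and FAS, a death receptor, by -0.08 (-0.47 to 0.32). BBC3, which encodes the death protein PUMA, stood at 1.98 ± 0.338 CPM in MS78 and 2.55 ± 0.302 CPM in TRAP-1-NegB, and its interval ran from -1.04 to 0.31. Differences of these genes were therefore not detectable at this depth and replicate number, and the wide interval of BBC3 covers a 2-fold fall.

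Genes of cholesterol synthesis and sterol sensing rose in MS78, and of the 28 lists of genes this one had the most members called higher. Of 30 members, all tested, 12 were higher and 3 lower, where 2.01% and 6.92% of all genes were, and the list's median log2 change was 0.18, against 0.0118 over all genes. The correction for GC content and length gave 15 higher and 1 lower, with a median of 0.28. The groups did not overlap at 22 of the 30 genes, and at 28.3% of all genes tested.

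INSIG1, which keeps the SREBP carrier SCAP in the endoplasmic reticulum, had 149, 145 and 141 CPM in MS78 and 87.6, 78.7 and 80.2 CPM in TRAP-1-NegB. In DMSO it had 24.7, 26.9 and 23.3 CPM. Every MS78 library was above every TRAP-1-NegB library, and these in turn were above every DMSO library. The log2 change was 0.82 ± 0.071 (1.76-fold, edgeR adjusted p = 4.3e-12). HMGCS1, which makes HMG-CoA, had 227, 216 and 206 CPM in MS78, 133, 139 and 136 CPM in TRAP-1-NegB and 72.9, 60.8 and 61.9 CPM in DMSO. The order of the 3 groups was the same as for INSIG1, and the log2 change was 0.67 ± 0.078 (edgeR adjusted p = 2.9e-08). MSMO1, a demethylase late in the route, had 75.6, 78.4 and 87.9 CPM in MS78 and 49.7, 48.7 and 38.9 CPM in TRAP-1-NegB, with 29.8, 25.2 and 26.6 CPM in DMSO. Again no group overlapped another, and the log2 change was 0.82 ± 0.13 (edgeR adjusted p = 1.5e-05).

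Their promoters are shown because these genes moved together and CDKN1A moved the other way. Each line holds the 150 bases before a start site listed by RefSeq (GRCh38.p14), 5′ to 3′ on the gene's strand, with CCAAT and CACGTG, on either strand, in capitals.
INSIG1, chr7:155297728-155297877, plus strand: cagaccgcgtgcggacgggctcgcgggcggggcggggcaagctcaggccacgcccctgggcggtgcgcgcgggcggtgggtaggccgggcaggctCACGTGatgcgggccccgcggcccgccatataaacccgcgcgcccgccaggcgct
HMGCS1, chr5:43313413-43313562, minus strand: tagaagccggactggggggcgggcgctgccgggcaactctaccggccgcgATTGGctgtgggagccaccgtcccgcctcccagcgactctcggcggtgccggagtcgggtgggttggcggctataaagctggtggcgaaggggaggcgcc
MSMO1, chr4:165327519-165327668, plus strand: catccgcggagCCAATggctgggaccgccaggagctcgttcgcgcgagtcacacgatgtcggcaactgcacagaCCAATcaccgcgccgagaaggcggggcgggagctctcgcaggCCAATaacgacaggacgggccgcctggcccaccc
CDKN1A, chr6:36678564-36678713, plus strand: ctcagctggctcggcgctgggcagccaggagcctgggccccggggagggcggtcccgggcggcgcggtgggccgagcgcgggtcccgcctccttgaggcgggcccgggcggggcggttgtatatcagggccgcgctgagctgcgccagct
CCAAT occurs 3 times in the MSMO1 stretch and 1 time in that of HMGCS1, and CACGTG 1 time in that of INSIG1. The CDKN1A stretch holds neither.

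A RefSeq promoter of 300 bases, 250 before the start and 50 after, was found for 10471 of the 14988 genes tested. CCAAT was present on either strand in 16 of 23 sterol list promoters (69.6%), 49.3% of promoters of genes called higher, 43.5% of those called lower and 43.1% of all. The E-box CACGTG was present in 5 of the 23 sterol list promoters (21.7%), 12.8% of promoters of higher genes, 14% of lower genes and 12.2% of all. GCGTG, the core bound by the aryl hydrocarbon receptor, was present in 18 of the 23 (78.3%), 63% of higher, 58.5% of lower and 57.5% of all promoters. The AP-1 site TGACTCA was present in 0 of the 23, 5.94% of higher, 5.25% of lower and 5.22% of all. The sterol-response-like TCACNCCAC was present in 1 of the 23 (4.35%), 1.37% of higher, 1.12% of lower and 1.5% of all. CCAAT and TCACNCCAC were added to the search after values had been seen, no test was made, and CACGTG holds neither GCGTG nor CCAAT.

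All 12 sterol genes called higher also had a higher mean in TRAP-1-NegB than in DMSO, and 11 of them were called so, STARD4 being the exception. SQLE, an oxidizing step that limits the rate of the route, averaged 118 ± 4.31 CPM in MS78 and 76.3 ± 1.86 CPM in TRAP-1-NegB (SD, n = 3 each), a log2 change of 0.63 (edgeR adjusted p = 2.9e-05). Also called higher were STARD4, a sterol carrier (0.50), CYP51A1 (0.47) and IDI1 (0.46), both enzymes of the route, FDFT1, the first enzyme committed to sterols (0.29), and DHCR7, a late step (0.25). DHCR7 had an edgeR adjusted p of 0.045 and STARD4 of 0.029, near the threshold. SREBF2, which encodes the main SREBP of this route, changed by 0.20 (edgeR adjusted p = 0.13; 0.29 and 0.0039 with the correction).

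The 3 members called lower were SCAP, the SREBP carrier (-0.28), MYLIP, a ubiquitin ligase (-0.55), and PMVK, an enzyme of the mevalonate steps (-0.53). None of the 3 calls was stable: leaving out 1 library left 0 to 2 of them, and with the GC and length correction MYLIP alone was called. ABCA1, a sterol exporter raised when sterol is plentiful, averaged 8.57 CPM in MS78 and 9.22 CPM in TRAP-1-NegB (-0.10, edgeR adjusted p = 0.82), and both compounds were below DMSO (-0.83 and -0.73). Against DMSO, 20 of the 30 genes were higher and 4 lower in MS78, and 13 were higher and 1 lower in TRAP-1-NegB, where 15.3% and 1.03% of all genes were called in the 2 comparisons.

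**Figure D2:**
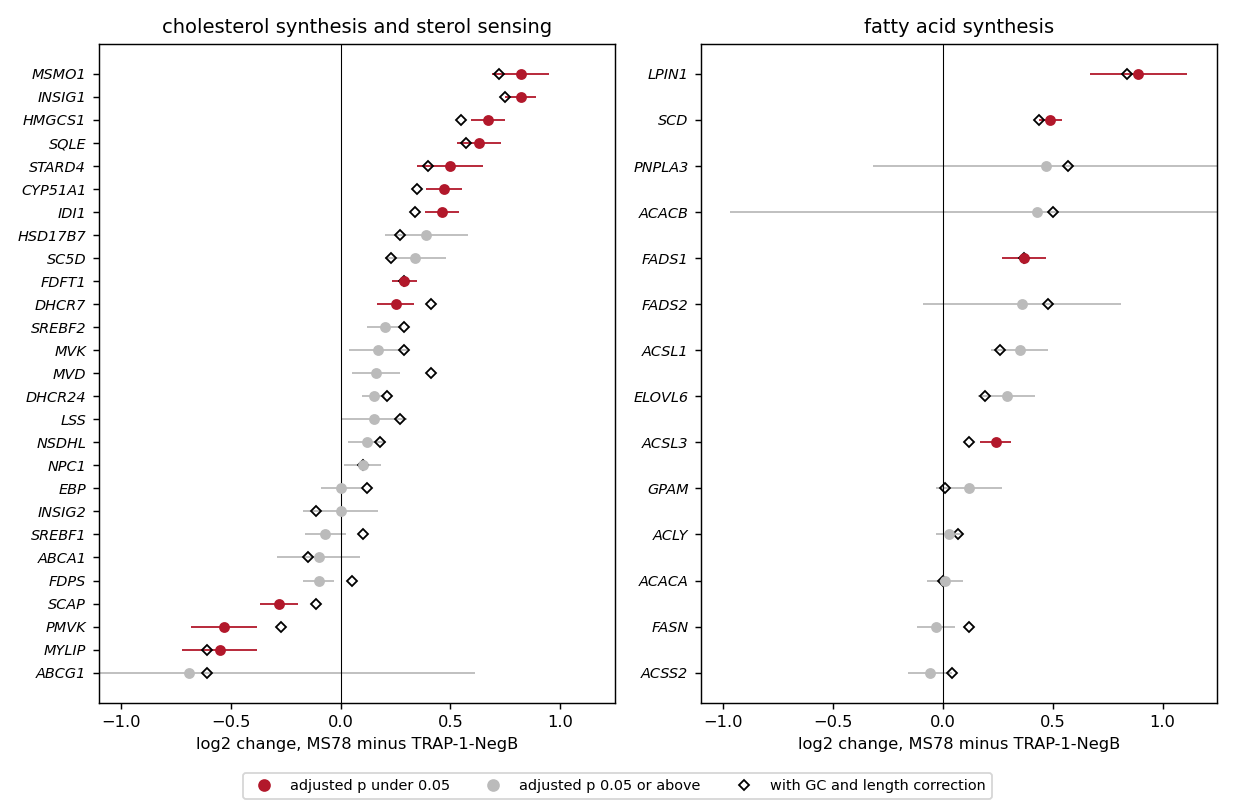
Log2 change at 4 h, MS78 minus TRAP-1-NegB, for 27 tested genes of the sterol list and 14 of the fatty acid list, with its SE as a bar; red points passed an adjusted p of 0.05, grey points did not, and open diamonds give the value with the GC and length correction. Of the sterol genes drawn 9 are called higher and 3 lower, and of the fatty acid genes 4 higher and 0 lower; bars that leave the axis belong to genes of low count.

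Fatty acid synthesis genes rose in part. Of 14 members, all tested, 4 were higher and 0 lower, where 2.01% and 6.92% of all genes were, with a median log2 change of 0.32 (0.22 with the correction). SCD, which puts the first double bond into fatty acids, had 441, 435 and 444 CPM in MS78, 305, 325 and 309 CPM in TRAP-1-NegB and 249, 225 and 232 CPM in DMSO. The groups did not overlap, and the log2 change was 0.49 ± 0.051 (edgeR adjusted p = 9e-10). LPIN1, a phosphatidate phosphatase, had 7.36, 9.24 and 7.51 CPM in MS78 and 4.85, 3.88 and 4.29 CPM in TRAP-1-NegB. It gave 0.89 ± 0.22 (edgeR adjusted p = 0.005) and, unlike SCD, did not differ detectably between TRAP-1-NegB and DMSO (-0.03). FADS1, a desaturase (0.37), and ACSL3, which activates fatty acids (0.24; 0.12 and not called with the correction), completed the 4. The synthases FASN (-0.03) and ACACA (0.01) were not called.

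**Figure D3:**
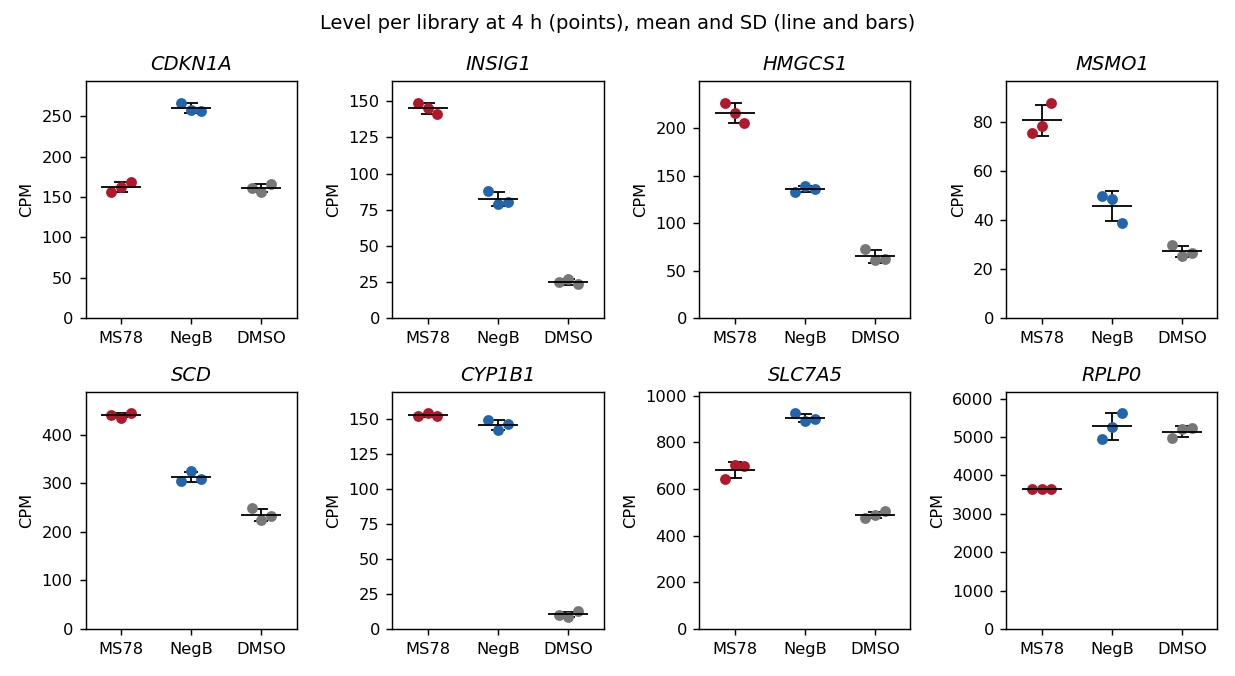
CPM of 8 genes at 4 h in each library (points) under MS78, TRAP-1-NegB (NegB) and DMSO, with the mean and SD of the 3 libraries. CDKN1A is at the DMSO level in MS78, the sterol and fatty acid genes step down from MS78 to TRAP-1-NegB to DMSO, CYP1B1 is far above DMSO under both compounds, and RPLP0 is lower in MS78 than in both other groups.

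Of 18 genes of the aryl hydrocarbon receptor pathway, 8 were higher and 2 lower in MS78 than in DMSO, and 8 were higher and 0 lower in TRAP-1-NegB than in DMSO. Of all genes tested, 15.3% were called in either direction in MS78 against DMSO and 1.03% in TRAP-1-NegB against DMSO. Between the compounds, 0 of the 18 were higher and 3 lower in MS78, where 2.01% and 6.92% of all genes were, with a median of 0.04. CYP1A1, a monooxygenase, had 30.5, 22.9 and 27.1 CPM in MS78, 32, 31.2 and 32.7 CPM in TRAP-1-NegB and 0.691, 0.765 and 1.42 CPM in DMSO. The 2 compounds lay close together and far from DMSO; their log2 difference was -0.25, with a 95% interval from -0.69 to 0.19 (edgeR adjusted p = 0.58). CYP1B1, its relative, had 152, 154 and 152 CPM in MS78, 149, 142 and 146 CPM in TRAP-1-NegB and 9.67, 8.85 and 12.7 CPM in DMSO (0.06, interval from -0.21 to 0.34). TIPARP, which restrains the receptor by ADP-ribosylation, changed by 0.04 (-0.13 to 0.20), and AHRR, its repressor, by -0.17 (-0.52 to 0.17). These intervals leave room for small differences between the compounds.

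The 3 lower members lay between TRAP-1-NegB and DMSO. SLC7A5, a transporter of large neutral amino acids, had 642, 704 and 700 CPM in MS78 and 925, 891 and 902 CPM in TRAP-1-NegB, with 477, 489 and 504 CPM in DMSO. The 3 groups did not overlap, and the log2 change was -0.41 ± 0.054 (edgeR adjusted p = 2.9e-07; -0.26 with the correction). ALDH3A1, an aldehyde dehydrogenase, changed by -0.37 (edgeR adjusted p = 0.00017) and SERPINB2, a protease inhibitor, by -0.23 (edgeR adjusted p = 0.012; -0.32 with the correction). IL1B, an inflammatory cytokine, followed the same order, with 53.4, 57.9 and 60.5 CPM in MS78, 70.7, 70.2 and 79.4 CPM in TRAP-1-NegB and 39.1, 38 and 38.9 CPM in DMSO (-0.36, edgeR adjusted p = 0.011). FOSL1, an AP-1 subunit, was likewise lower in MS78 (-0.43, edgeR adjusted p = 1.5e-06; -0.19 with the correction) and close to DMSO (-0.10).

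Many genes called lower in MS78 were short or rich in G and C. Their median transcript length was 2206 bases and their median GC content 58.9%, against 4167 bases and 42.9% for genes called higher and 3540 bases and 48.6% for all genes tested. Split by length into 5 equal bins, the bin of the shortest transcripts had 16.1% called lower, against 2.1% in that of the longest. Split by GC content, the highest of 5 bins had 19.4% called lower, against 0.427% in the lowest. The TMM scaling factors were 1.068 to 1.084 in the MS78 libraries and 0.994 to 1.004 in the TRAP-1-NegB libraries. The bin of shortest transcripts lay below the mean of all libraries in MS78 (median log2 deviations of -0.073, -0.072 and -0.064) and above it in TRAP-1-NegB (0.054, 0.071 and 0.084) and DMSO (0.044, 0.133 and 0.109). With the correction, 200 genes were higher (1.42%) and 346 lower (2.46%) of 14055, and 404 genes were called in both fits, all with the same sign. The share of calls that were higher was 22.5% without and 36.6% with the correction, and 35.3% by the DESeq2 Wald test. What part GC content and length play in the single results was not tested beyond the corrected values given.

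**Figure D4:**
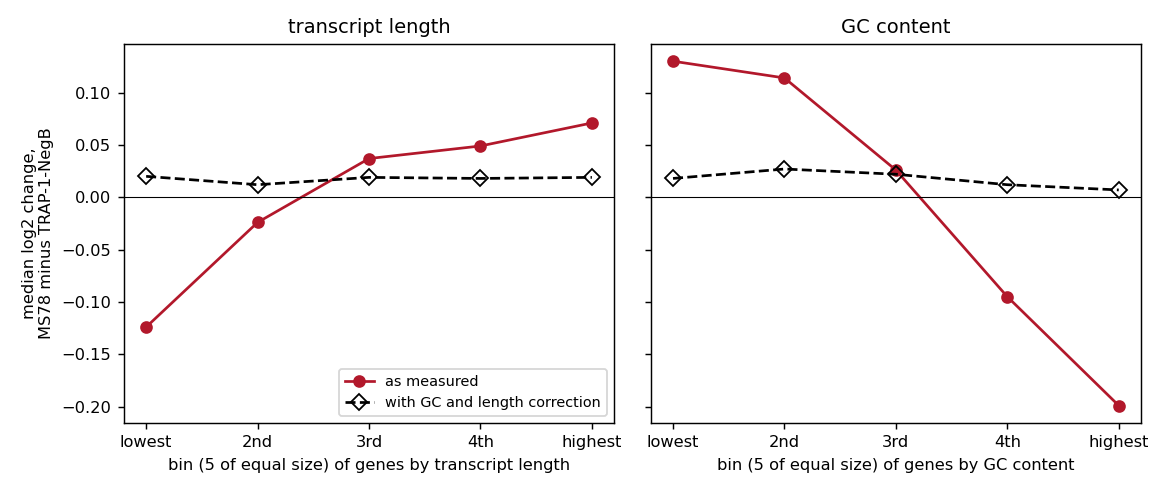
Median log2 change at 4 h, MS78 minus TRAP-1-NegB, in 5 equal bins of the 14055 genes with known values, ordered by transcript length (left) and GC content (right). As measured (red), the median runs from -0.124 to 0.071 with length and from 0.13 to -0.199 with GC content; with the correction (open diamonds) it stays between 0.007 and 0.027.

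Ribosomal protein genes were lower as a group in MS78. The list was chosen after values had been seen. Of 77 genes, 1 was higher and 46 lower, where 2.01% and 6.92% of all genes were, with a median of -0.24 (2 higher and 37 lower with the correction, median -0.20). Reads of these genes can be shared with their many processed pseudogenes, so single values are uncertain. RPLP0, a protein of the ribosomal stalk, had 3650, 3640 and 3650 CPM in MS78, 4940, 5270 and 5620 CPM in TRAP-1-NegB and 4970, 5220 and 5230 CPM in DMSO. MS78 lay below both other groups, which overlapped each other, and the log2 change was -0.53 ± 0.049 (edgeR adjusted p = 3.2e-11; -0.49 with the correction). RPS9, of the small subunit, had 771, 788 and 761 CPM in MS78 and 1150, 1150 and 1170 CPM in TRAP-1-NegB (-0.58 ± 0.065, edgeR adjusted p = 4.8e-08). RPL7 was the member called higher (0.27). Against DMSO 49 of the 77 were lower in MS78 and 0 in TRAP-1-NegB, where 1356 and 30 of all 14988 genes were.

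Nuclear-encoded subunits of the respiratory chain, also chosen after values had been seen, showed 0 higher and 31 lower of 81 (median -0.20; 16 lower and a median of -0.10 with the correction). Of all genes 2.01% were higher and 6.92% lower, and with the correction 1.42% and 2.46%. UQCRQ, of complex III, had 87.3, 83.1 and 88.2 CPM in MS78 and 133, 124 and 131 CPM in TRAP-1-NegB (-0.58 ± 0.084, edgeR adjusted p = 2e-06; -0.42 with the correction). NDUFB7, of complex I, had the largest fall of the list that was called (-0.79), but with the correction it was -0.34 and not called (edgeR adjusted p = 0.21). Against the same shares of all genes, of 26 genes of hypoxia and glycolysis 0 were higher and 8 lower (1 higher and 7 lower with the correction). Of the 8, 7 were glycolytic enzymes. ALDOA had 2570, 2580 and 2590 CPM in MS78 and 3320, 3300 and 3390 CPM in TRAP-1-NegB (-0.37 ± 0.053, edgeR adjusted p = 1.5e-06; -0.26 with the correction), and TPI1 (-0.41), GAPDH (-0.34), PKM (-0.31), ENO1 (-0.27), PGAM1 (-0.18; -0.07 and not called with the correction) and PGK1 (-0.13) were also lower. The eighth was NDRG1 (-0.26), and hypoxia targets such as VEGFA (0.19, edgeR adjusted p = 0.11) and ADM (0.12) were not called.

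Epithelial keratins were lower. Of 16 ductal and epithelial genes tested, 1 was higher and 7 lower, where 2.01% and 6.92% of all genes were, and 2 higher and 3 lower with the correction. KRT17 changed by -0.36, KRT8 by -0.30 and KRT18 by -0.25. KRT7, at -0.25, had 0.03 with the correction. CEACAM6, an adhesion protein, was higher, with 540, 538 and 550 CPM in MS78 and 452, 464 and 469 CPM in TRAP-1-NegB (0.23, edgeR adjusted p = 0.00038).

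Of 28 acetyltransferases and deacetylases, 0 were higher and 1 lower, 3.57% against 8.93% of all genes called. The one called was SIRT2, a deacetylase, with 33.7, 32.8 and 36.3 CPM in MS78 and 48.1, 46.9 and 50.3 CPM in TRAP-1-NegB (-0.50 ± 0.10, edgeR adjusted p = 6e-04; -0.36 with the correction). EP300, which encodes p300, changed by -0.02 (95% interval from -0.22 to 0.18) and CREBBP, which encodes CBP, by 0.01 (-0.16 to 0.18). Of 15 genes that BET bromodomain inhibitors induce, 0 were higher and 2 lower, and of 12 that they repress 0 were higher and 1 lower, where 2.01% and 6.92% of all genes were. HEXIM1, the usual induced marker, changed by -0.10 (-0.26 to 0.07) and MYC by -0.02 (-0.17 to 0.13). The BET gene BRD2 changed by -0.02. Of 19 pause release genes 0 were higher and 4 lower, MEPCE, NELFB and NELFE among them, against the same shares of all genes. NELFB and NELFE were near the threshold (edgeR adjusted p = 0.045 and 0.049) and kept their calls under 5 and 4 of 16 alternatives. With the correction 0 of the 19 were called.

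Of 22 genes of the unfolded protein response 3 were slightly higher and 0 lower, where 2.01% and 6.92% of all genes were. HSPA5, the main chaperone there, had 1180, 1110 and 1110 CPM in MS78, 967, 946 and 942 CPM in TRAP-1-NegB and 848, 830 and 801 CPM in DMSO. The groups did not overlap (0.25 ± 0.041, edgeR adjusted p = 2e-05). HSP90B1, which folds membrane and secreted proteins, changed by 0.33 (edgeR adjusted p = 2.4e-05) and PDIA3, a disulfide isomerase, by 0.18 (0.07 and not called with the correction). Of 23 genes of the integrated stress response 0 were higher and 2 lower, the amino acid transporters SLC7A5 and SLC3A2 (-0.24; -0.07 and not called with the correction), whose proteins pair.

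A few cell-cycle genes were slightly higher. Of 34 replication genes 5 were higher and 0 lower, and of 34 mitotic genes 4 were higher and 2 lower, where 2.01% and 6.92% of all genes were. PRC1, which bundles spindle microtubules, changed by 0.29 (edgeR adjusted p = 0.0039), and MCM4, of the replicative helicase, by 0.18 (edgeR adjusted p = 0.0052). CDC20 (-0.23) and CDC25B (-0.18) were the 2 mitotic genes called lower, and both were near 0 with the correction. TPX2 and NUSAP1, of the spindle, lost their higher call with it (0.12 and 0.17), which left 2 mitotic genes higher and 0 lower. Against the same shares of all genes, of 24 MAPK feedback genes 1 was higher and 4 lower, among them the EGF receptor ligands HBEGF (-0.34, edgeR adjusted p = 0.00018; -0.29 with the correction) and AREG (-0.30, edgeR adjusted p = 0.0067; -0.27 with the correction). Of 27 NF-kB and inflammatory genes 0 were higher (2.01% of all genes) and 4 lower (6.92% of all genes), namely IL1B, RELB, NFKB2 and BCL3, of which IL1B alone was called with the correction. Of 23 NRF2 targets 0 were higher and 3 lower against those shares, and with the correction 2 were higher and 0 lower.

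Of the 15 largest falls among genes of at least 5 CPM with groups that did not overlap, TRAPPC5, a subunit of a vesicle tethering complex, came first. It had 33.7, 41.2 and 39.7 CPM in MS78, 69.5, 83.7 and 74.6 CPM in TRAP-1-NegB and 66.4, 82.6 and 81.3 CPM in DMSO. The MS78 libraries lay below all libraries of both other groups, with a log2 change of -0.99 ± 0.12 (edgeR adjusted p = 2.9e-07; -0.91 with the correction). BSCL2, which encodes seipin of lipid droplet assembly, had 43.2, 41.9 and 49.9 CPM in MS78 and 80.8, 72.7 and 90.8 CPM in TRAP-1-NegB. The groups lay far apart (-0.86 ± 0.12, edgeR adjusted p = 1.4e-06; -0.72 with the correction). CFD, complement factor D (-0.84), DUSP2, a MAPK phosphatase (-0.78), and GCHFR, a regulator of GTP cyclohydrolase (-0.73), were also among them. With the correction 8 of the 13 that have a GC content and length lost their call, CFD and DUSP2 included. Among the 15 largest rises, beside the lipid genes, were LRRN1 (0.99), MERTK, a receptor tyrosine kinase (0.88), FBXO32, a ubiquitin ligase subunit (0.79), PMS1, of mismatch repair (0.68), and PDCL3, a chaperone cofactor (0.64). PDCL3 had 25.5, 23.7 and 22.4 CPM in MS78 and 17.6, 14.9 and 13.5 CPM in TRAP-1-NegB and kept its call under all 16 alternatives, while MERTK lost its call under 6 of 15. LRRN1 kept its call under 12 of 15, FBXO32 under 11 of 15 and PMS1 under 12 of 16. With the correction 5 of the 14 largest rises that have a GC content and length lost their call.

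At 2 h, 228 genes were higher and 247 lower in MS78, 3.17% of those tested, but 25 genes in all without MS78 replicate 1. Without TRAP-1-NegB replicate 1 there were 9 higher and 41 lower, 6 higher and 33 lower without its replicate 2, and 144 higher and 326 lower without its replicate 3. Leaving out MS78 replicate 2 gave 256 higher and 591 lower, and leaving out MS78 replicate 3 gave 854 higher and 1396 lower; both keep the library that stood apart. CDKN1A was already lower, with 162, 145 and 142 CPM in MS78 and 215, 226 and 237 CPM in TRAP-1-NegB (-0.59, edgeR adjusted p = 1.6e-12; -0.65 without that library). Its change did not differ detectably between the times (-0.09, edgeR adjusted p = 0.39; -0.03 and 0.84 without that library), but with the correction it did (0.18, edgeR adjusted p = 0.032). INSIG1 was higher at 2 h by less than at 4 h. It had 48.9, 57.6 and 57.7 CPM in MS78 and 42.4, 43 and 45.5 CPM in TRAP-1-NegB (0.32, edgeR adjusted p = 0.015; 0.40 and 0.0012 without that library), and the 2 times differed by 0.50 (edgeR adjusted p = 0.00059; 0.42 and 0.0024 without that library). Of the 30 sterol genes 2 were higher and 0 lower at 2 h, and also without that library.

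Of the 18 genes of the aryl hydrocarbon receptor pathway, 1 was higher and 4 were lower in MS78 at 2 h, and 0 and 4 without that library. Of all 14988 genes, 228 were higher and 247 lower, and 7 and 18 without that library. CYP1B1 had 61.7, 86.3 and 86.2 CPM in MS78 and 158, 153 and 153 CPM in TRAP-1-NegB at 2 h. The groups lay apart (-0.99, edgeR adjusted p = 4.6e-05; -0.84 and 0.00033 without that library), and the change differed between the times by 1.05 (edgeR adjusted p = 0.00022; 0.90 and 0.00051 without that library). CYP1A1 had 12.3, 11.5 and 10 CPM in MS78 and 23.9, 21.5 and 22.3 CPM in TRAP-1-NegB at 2 h (-1.0, edgeR adjusted p = 0.014; -1.07 and 0.045 without that library), and the difference between the times was 0.75 (edgeR adjusted p = 0.099; 0.82 and 0.12 without that library). SERPINB2 was lower at both times, by -0.62 at 2 h (-0.52 without that library). The immediate early genes FOSB and ATF3 went the other way. They were among 3 higher and 0 lower of 28 immediate early genes at 2 h, where 228 and 247 of all 14988 genes were, and the list's median was 0. FOSB had 26.3, 23.9 and 26.6 CPM in MS78 and 9.07, 10.9 and 13.7 CPM in TRAP-1-NegB at 2 h (1.18, edgeR adjusted p = 1.7e-05; 1.16 and 8.1e-05 without that library), whereas at 4 h its change was -0.03. ATF3 had 14.3, 11.6 and 12.8 CPM in MS78 and 5.28, 7.47 and 4.77 CPM in TRAP-1-NegB at 2 h (1.14, edgeR adjusted p = 0.00097; 1.05 and 0.01 without that library), and -0.46 at 4 h (edgeR adjusted p = 0.20).

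RPLP0 stood at 4110, 3350 and 3270 CPM in MS78 and at 3120, 3140 and 3220 CPM in TRAP-1-NegB at 2 h. The log2 change there was 0.18 (edgeR adjusted p = 0.036), and it was not called without MS78 replicate 1, the highest library (0.07, edgeR adjusted p = 0.86). The difference between the times was -0.71 (edgeR adjusted p = 7.1e-10; -0.60 and 5e-16 without that library). The TRAP-1-NegB libraries thus held more RPLP0 at 4 h than at 2 h, and the MS78 libraries at 4 h lay above 2 of the 3 MS78 libraries at 2 h and below the one that stood apart. Of the 77 ribosomal protein genes 6 were higher and 0 lower at 2 h, where 228 and 247 of all 14988 genes were. Without MS78 replicate 1, 0 of the 77 were called, and 25 of all genes.

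**Figure D5:**
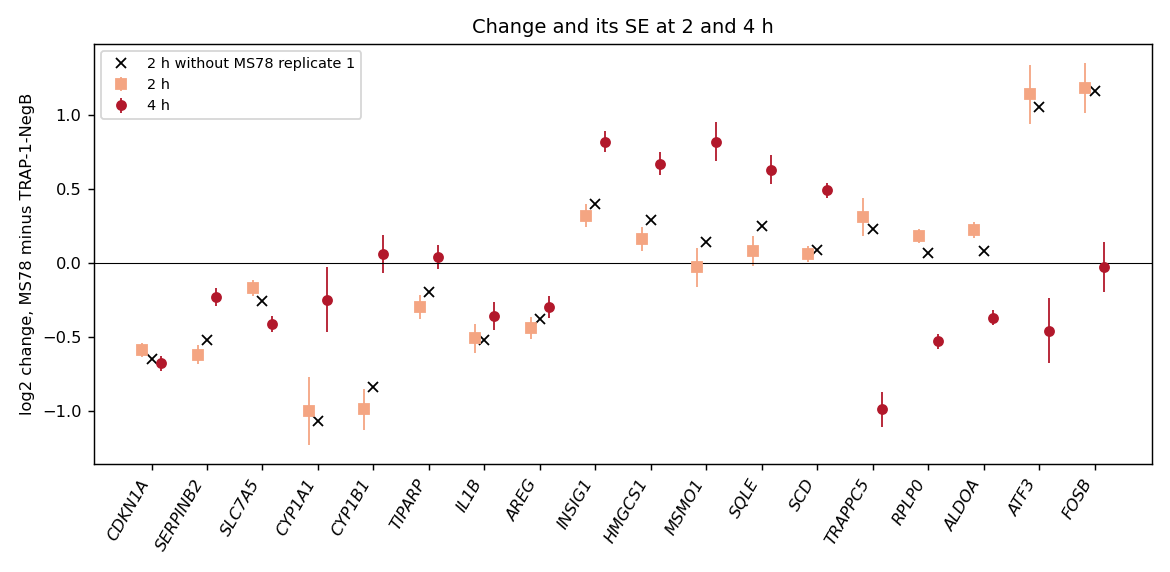
Log2 change, MS78 minus TRAP-1-NegB, of 18 genes at 2 h (squares) and 4 h (circles) with the SE as bars, and at 2 h without MS78 replicate 1 (crosses). CDKN1A is low at both times, CYP1B1 is low at 2 h and near 0 at 4 h, INSIG1 is higher at 4 h than at 2 h, and FOSB is high at 2 h and near 0 at 4 h.

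Against DMSO at 4 h, 934 genes were higher and 1356 lower in MS78, 15.3% of those tested, and 124 were higher and 30 lower in TRAP-1-NegB, 1.03%. The 2 sets share their DMSO libraries. TRAP1 against TRAP-1-NegB called 46.1% of the genes at the same time, and MS78 against TRAP-1-NegB 8.93%.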

How the data were processed

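RNA of BxPC-3 cells was sequenced after polyA enrichment as paired-end reads of 150 bases, per the series' design text. Per the submitters' processing notes, the authors quantified genes against hg38 with Salmon 1.10.3 in nf-core/rnaseq 3.18.0; the release of the gene annotation was not given in the sources used here. As deposited, estimated counts are not normalized for depth. The authors' length-scaled estimated counts served as an alternative, and their deposited TPM values served for cell markers.

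Estimated counts were rounded and fitted in R 4.3.3 with edgeR 4.0.16 (TMM, robust quasi-likelihood, 1 mean for each of 12 groups, all 36 libraries, minimum count 10, biological coefficient of variation 0.135). P-values were adjusted over all 14988 genes within each comparison. MS78 and TRAP-1-NegB are 1 pair of compounds, compared at 2 times. CPM values use TMM library sizes, each SE holds counting error and replicate spread together, and totals of all libraries ran from 15288688 to 26608325. A loess correction for GC content and transcript length (span 0.4, GENCODE v29 on GRCh38) covered 93.8% of genes tested and was chosen after seeing the data. Other alternatives used DESeq2 1.42.0, other filters, a replicate block and omitted libraries. Counts of this comparison (14988 genes) were simulated with changes at 200 genes of at least 5 CPM and with no shift by GC content or length. In these, 60% of true 1.5-fold changes and 94% of true 2-fold changes were called, and 7 unchanged genes were called too. Rates for genes of lower level, or with such a shift, were not tested. Plots came from matplotlib 3.10.9 under Python 3.11.15.

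The members, lists and tests were chosen with earlier results of these data known. Genes named were, by size of log2 change, the 15 in each direction with a mean of at least 5 CPM and groups that do not overlap, up to 4 called members of each of 28 lists per direction by adjusted p, the 5 largest differences between the times in each direction, and a panel. Further list members are named where a sentence gives the whole list's calls, and genes of 2 added lists were chosen after their values were seen. List counts cover all members tested, some of which are not reported here by name.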

Additional observations from a re-analysis of the deposited data

Results flagged for a closer look

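The change between MS78 and TRAP-1-NegB differed between 4 h and 2 h at 2424 genes, by edgeR's test of the difference itself with adjusted p under 0.05. Without MS78 2 h replicate 1, the library that stood apart, 1168 genes differed, and with the GC and length correction 575 did. Of all genes tested 16.2% differed. Of 77 genes named both by the rule, which itself picks some of the largest differences, and in the text, 52 differed, 36 with a negative and 16 with a positive difference (4 h minus 2 h, log2). Of the 52, 40 were also called without that library and 24 with the correction. The part that library, GC content and length play in single genes was not tested beyond these counts.

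For ATF3 and FOSB, which rise within minutes of a stimulus, the difference was -1.59 and -1.21, and for the AP-1 subunit FOSL1 it was -0.53. ATF3 and FOSB kept their calls without that library (-1.51 and -1.19) and with the correction (-1.62 and -0.98). FOSL1 kept its call without that library (-0.43) but not with the correction (-0.18, adjusted p = 0.12, edgeR). Among the receptor's targets the difference was 1.05 for CYP1B1, 0.34 for TIPARP, 0.38 for SERPINB2, -0.45 for ALDH3A1 and -0.24 for SLC7A5. Without that library, CYP1B1 gave 0.90 (adjusted p = 0.00051, edgeR) and TIPARP 0.24 (adjusted p = 0.19, edgeR), and SLC7A5 was not called (adjusted p = 0.13, edgeR). With the correction CYP1B1 kept its call (0.87), and TIPARP, SERPINB2, ALDH3A1 and SLC7A5 did not.

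Among the lipid genes the difference was 0.85 for MSMO1, 0.58 for IDI1, 0.54 for SQLE, 0.51 for HMGCS1, 0.50 for INSIG1, 0.43 for SCD and 0.33 for ACSL3. It was -0.89 for PMVK and -0.45 for SCAP. MDM2 gave 0.68, from a log2 change of 0.21 at 4 h and -0.48 at 2 h (adjusted p = 0.019, edgeR), which without that library was -0.27 (adjusted p = 0.63, edgeR). Other positive differences were 1.14 for LRRN1, 0.79 for PDCL3, 0.28 for MCM4, 0.25 for HSP90B1 and 0.19 for CEACAM6. ACSL3, LRRN1, HSP90B1 and CEACAM6 lost their calls without that library (adjusted p = 0.087, 0.11, 0.06 and 0.089, edgeR). With the correction IDI1, HMGCS1, ACSL3, PMVK, SCAP, MDM2, LRRN1, HSP90B1 and CEACAM6 lost theirs, with HMGCS1 at 0.19 and ACSL3 at -0.08.

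Of the genes of growth and energy, RPS9 gave -0.79, RPLP0 -0.71, NDUFB7 -0.87, UQCRQ -0.61, TPI1 -0.61, ALDOA -0.59, GAPDH -0.52 and PKM -0.51. The keratins KRT17, KRT8, KRT7 and KRT18 gave -0.47, -0.46, -0.44 and -0.42. The vesicle and lipid droplet genes TRAPPC5 and BSCL2 gave -1.30 and -0.89, and GCHFR -0.90. PGF gave -0.84, SERTAD1 -0.60, SFN -0.43, PLK3 -0.35 and SLC3A2 -0.43. Without that library SERTAD1, SFN and PLK3 were no longer called (adjusted p = 0.099, 0.12 and 0.086, edgeR), and with the correction SFN was at -0.02 and PLK3 at -0.04. In transcription control, SIRT2 gave -0.74, RELB -0.72, NFKB2 -0.60, MEPCE -0.47, and NELFB and NELFE -0.40 each. CDC20 (-0.42), CDC25B (-0.33) and HBEGF (-0.37) complete the set. NFKB2, NELFB and NELFE also lost their calls without that library (adjusted p = 0.076, 0.072 and 0.19, edgeR). With the correction no call was kept for NDUFB7, KRT7, GCHFR, SERTAD1, SFN, PLK3, SLC3A2, RELB, NFKB2, MEPCE, NELFB, NELFE, CDC20 and CDC25B.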

How the results depend on the processing

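At 4 h the counts of 301 genes higher and 1037 lower moved by over 1.5 times to 741 higher when only the groups compared were fitted, to 868 higher without the 2 libraries that stood apart (TRAP1 4 h replicate 1 and MS78 2 h replicate 1), to 615 higher by the DESeq2 Wald test, and to 200 higher and 346 lower with the GC and length correction. Leaving out 1 library gave 141 to 294 higher (141 without TRAP-1-NegB replicate 3, 190 without MS78 replicate 1) and 474 to 780 lower (474 without MS78 replicate 1). At 2 h (228 higher, 247 lower) the counts were 2 and 3 with only the groups compared, 8 and 18 without both libraries, 133 and 65 with the correction, 518 and 503 by the Wald test, and 595 lower with no count filter; omitting 1 library gave 6 to 854 higher and 18 to 1396 lower. The difference between the times (866 and 1558) gave 160 and 573, 477 and 774, and 141 and 434 with only the groups compared, without both libraries and with the correction, and 336 to 2130 and 747 to 1718 without 1 library. MS78 against DMSO (934 and 1356) gave 1421 higher with only the groups compared, 1802 higher without both libraries and 435 and 441 with the correction (513 to 1353 and 766 to 1230 without 1 library). TRAP-1-NegB against DMSO (124 and 30) gave 298 higher without both libraries and 207 with the correction, and 69, 61, 87, 68 and 66 lower with no filter, only the groups compared, without both libraries, with the correction and by the Wald test (72 to 127 and 13 to 32 without 1 library). TRAP1 against TRAP-1-NegB stayed at 2903 to 3061 higher and 3290 to 3512 lower, MS78 against TRAP1 at 3667 to 3804 and 2969 to 3275, and the sterol genes called higher at 10 to 11, without 1 library each. The cause of these shifts was not tested. Same-numbered libraries of the 2 groups deviated together by correlations of 0.07, 0.04 and 0.03, and libraries of unlike number by -0.07 to 0.04. These values do not show a pairing by number. They cannot exclude one, since deviations of single genes hold counting error. A replicate block gave 291 higher and 1006 lower.

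Of 2172 values of named genes under alternatives, 1832 kept their direction and stayed called or uncalled, 303 lost a call, 2 gained one, and 32, over 13 genes, changed sign without being called either way. In 3 more a call was lost and the sign changed: with the correction NELFB was 0.00, IER3 0.05 and KRT7 0.03, none of them called. Depth limits genes under about 5 CPM, whose changes must be large to be called.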
